A study of Mus musculus with 15 samples.

Results

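Meis1, Meis2, Meis3, Pbx2, Pbx3 and Pax6 are 6 of the 26145 genes counted in single cells of the mouse prefrontal cortex (PFC), and their levels are given here across cell types, clusters, libraries, ages and cocaine treatment. They were looked up by gene symbol. They had been chosen from their levels across the clusters and libraries, above all in the inhibitory cluster Inhib_3 with and without 1 library (library 8), so those levels are a description and are given without a test. Tests are given for age and for cocaine, except the contrasts of inhibitory neurons that contain library 8 against its saline group.

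Male C57BL/6N mice were used, and per the labels the PFC of 2 mice was pooled for a library. In 12 libraries the mice were adult (P60 in the study, 8 to 10 weeks in the labels) and had taken saline or cocaine by intravenous self-administration, with 2 libraries per group. Cocaine mice gave libraries 1 and 4 when maintenance ended, 6 and 8 after 48 h of withdrawal, and 9 and 10 after 15 d of withdrawal, and saline mice gave libraries 2 and 3, 5 and 7, and 11 and 12 at these times. In 3 further libraries the mice were at P21 (3 weeks in the labels) and are listed with no self-administration phase, so that age and the self-administration procedure cannot be told apart. The P21 libraries came from 4 mice in all, and how these were divided is not known. The P21 libraries may therefore share animals, in which case the p-values for age, which treat them as 3 separate samples, are too small.

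Meis and Pbx proteins are homeodomain transcription factors of the TALE class. They bind DNA together, as partners of each other and of other homeodomain proteins such as the Hox and Dlx factors, and are known for roles in patterning the embryo and in the identity of neurons. Pax6 carries a paired domain and a homeodomain and is known for its part in eye and forebrain development, in neural stem cells, in astrocytes and in the dopaminergic interneurons of the olfactory bulb, a cell type in which Meis2 is known to act beside it.

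The genes lie on 4 chromosomes of the mm9 (NCBIM37) genome to which the reads were aligned. Meis1 (ENSMUSG00000020160) is at chr11:18780433-18918961 on the minus strand, Meis2 (ENSMUSG00000027210) at chr2:115688800-115891575 on the minus strand and Meis3 (ENSMUSG00000041420) at chr7:16760729-16771853 on the plus strand. Pbx2 (ENSMUSG00000034673) is at chr17:34728211-34734345 on the plus strand, Pbx3 (ENSMUSG00000038718) at chr2:34026977-34228660 on the minus strand and Pax6 (ENSMUSG00000027168) at chr2:105509053-105543317 on the plus strand. The last 500 bases of Pax6, from which 3′ tags are read, share a near-identical stretch with Elp4, a gene that overlaps it on the other strand, and an exon of Pbx2 overlaps Gpsm3 on the same strand. Counts of Pax6 and Pbx2 are uncertain to that extent.

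The promoters of Meis2 and Pax6 are shown because these genes carry most of the pattern below and because Pax6 has the only match among the Meis1, Meis2, Meis3, Pbx2 and Pax6 windows to a core motif of the family itself. Each is the 250 bases before a transcription start in RefSeq on GRCm38.p6, printed 5′ to 3′ on the strand of the gene, and capitals mark a match to the Meis core TGACAG or its reverse complement CTGTCA. The Meis2 window is chr2:116064620-116064869, minus strand, and the Pax6 window, the second of 2 listed, is chr2:105682213-105682462, plus strand.
Meis2: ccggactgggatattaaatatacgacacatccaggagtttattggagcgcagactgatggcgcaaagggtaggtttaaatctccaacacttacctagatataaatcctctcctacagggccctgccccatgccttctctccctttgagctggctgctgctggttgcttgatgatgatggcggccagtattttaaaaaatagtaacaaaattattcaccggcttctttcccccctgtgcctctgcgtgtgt
Pax6: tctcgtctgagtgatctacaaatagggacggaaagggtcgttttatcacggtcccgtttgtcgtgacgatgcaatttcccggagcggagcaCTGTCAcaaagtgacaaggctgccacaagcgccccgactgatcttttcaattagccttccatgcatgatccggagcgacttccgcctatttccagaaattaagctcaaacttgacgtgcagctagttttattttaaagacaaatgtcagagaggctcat

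The match in the Pax6 window begins 159 bases before the start. Of 32851 such windows of the genome, 15.9% hold TGACAG or CTGTCA. The Pbx core TGATTG, or its reverse complement CAATCA, which shares no position with the former here, is in 12.7% of all windows and in none of the windows of these 5 genes. A match of these letters is not a binding site, and its absence from this window says nothing of the factors.

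Cells were captured in droplets, where each mRNA molecule received a tag, the unique molecular identifier (UMI), so that UMIs count molecules. Levels are the UMIs of a gene over all UMIs of the cells summed, scaled to CPM, with mitochondrial and ribosomal protein genes set aside. The retained cells numbered 24822 at P60 and 10538 at P21, and those of a library held 8375172 to 42892922 UMIs. The markers of each cell type were highest in that type at both ages. At P21 the margin was narrow in oligodendrocyte precursor cells (OPC), whose markers summed to 459 CPM in OPC against 363 CPM in mature oligodendrocytes, and 459 P21 cells had a class and a cluster of different types, against 33 at P60. The labels name the nucleus accumbens as the tissue beside the PFC, and 9 genes of that region's projection neurons ran at mixed levels in the P60 inhibitory clusters other than Inhib_3, library 8 left out. Drd2 (2.18 CPM), Adora2a (1.54), Drd1a (7.95), Ppp1r1b (9.61) and Rgs9 (9.87) were below 10 CPM, and Foxp1 (61.4), Pde10a (117), Tac1 (120) and Penk (121) above 60 CPM. Any pair of libraries shared at most 27 barcodes and at most 1.09% of the barcodes of the smaller library.

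**Figure D1:**
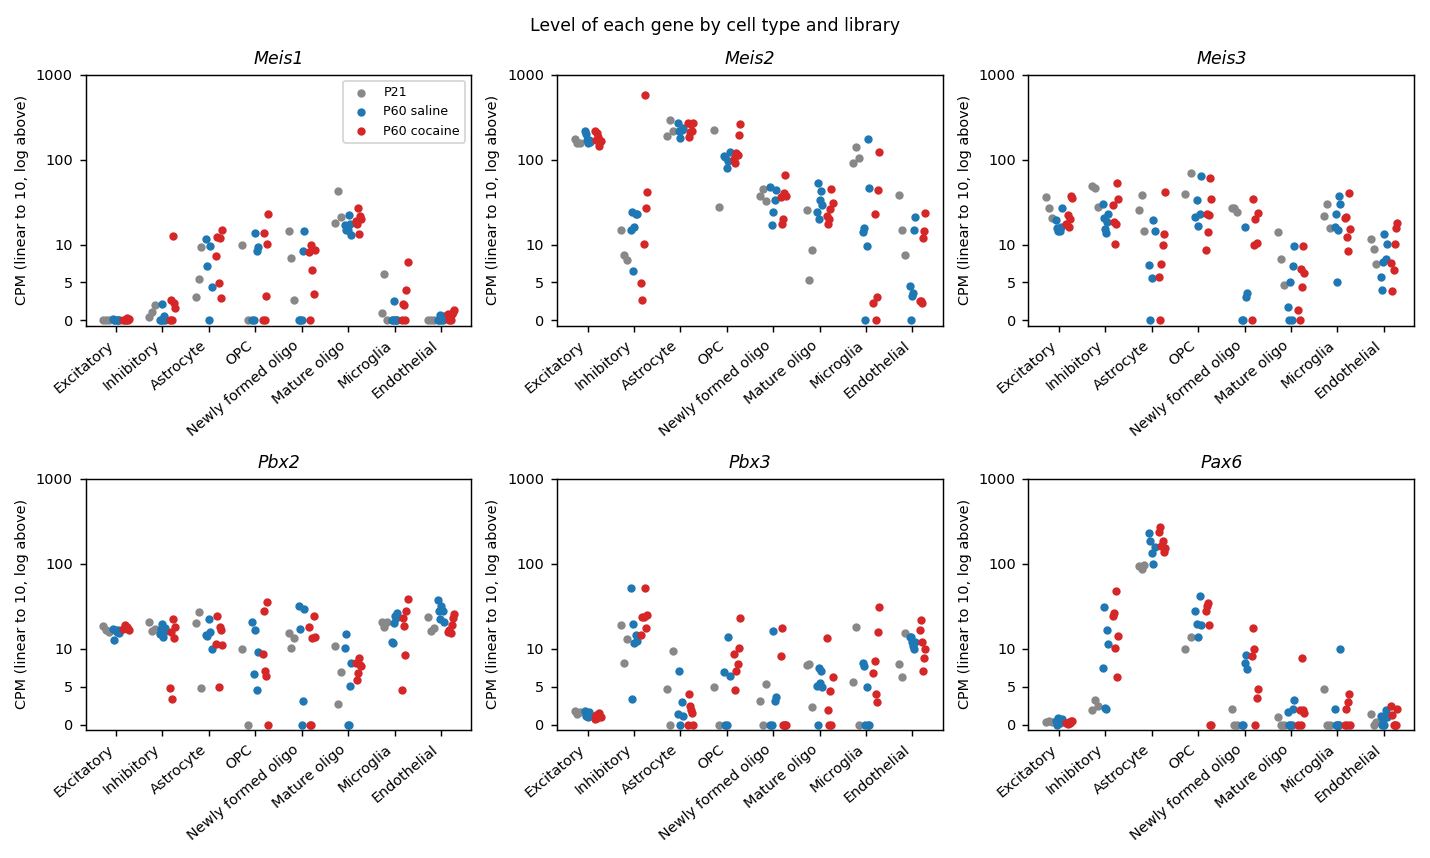
Level of each gene in CPM (vertical axis, linear to 10 and logarithmic above) in 8 cell types (horizontal axis). Each point is 1 library with at least 10 cells of the type, in grey for P21, blue for P60 saline and red for P60 cocaine. Meis2 is high in excitatory neurons and astrocytes, Pax6 in astrocytes, and 1 cocaine library reaches 567.8 CPM of Meis2 in inhibitory neurons.

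Meis2 was detected mostly in excitatory neurons, astrocytes and OPC. Its level was 180 ± 24.6 CPM in excitatory neurons (SD, n = 12 P60 libraries, 144 to 219), 231 ± 33.3 CPM in astrocytes (n = 11, 180 to 272) and 127 ± 53.7 CPM in OPC (n = 11). Newly formed and mature oligodendrocytes had 34.9 ± 14.8 and 30.4 ± 11.2 CPM. Endothelial cells had 0 to 23.3 CPM. The libraries of excitatory neurons and astrocytes overlapped, and those of both lay above all libraries of the oligodendrocyte and endothelial classes.

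Meis2 in microglia, which derive from another lineage, moved with the libraries. It lay between 0 and 23.1 CPM in libraries 1 to 8 and between 43.9 and 175 CPM in libraries 9 to 12. Slc17a7, the vesicular glutamate transporter of cortical excitatory neurons, was in those same microglia at 7.51 to 79.7 CPM in libraries 1 to 8 and at 61.5 to 157 CPM in libraries 9 to 12. OPC held Slc17a7 at 6.97 to 49.2 CPM in those of libraries 1 to 8 with at least 10 OPC, and at 70.7 to 206 CPM in libraries 9 to 12. The part of neuronal RNA in the microglial and OPC values was not tested. A Meis2 UMI was found in 3.04% of microglia at a median of 3214 UMIs per cell, in 69.8% of excitatory neurons at 13616 and in 52.3% of astrocytes at 3512. After thinning to 2000 UMIs per cell they fell to 1.86%, 26.5% and 34.6%, so that the order of neurons and astrocytes turned.

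Pax6 was detected mostly in astrocytes. It was at 177 ± 50.2 CPM in astrocytes (n = 11, 98.9 to 269), at 21.6 ± 13.3 CPM in OPC and at 16.7 ± 13.6 CPM in inhibitory neurons (n = 12). In excitatory neurons it was at 0.38 ± 0.24 CPM and in endothelial cells at 0 to 2.52 CPM. Each astrocyte library lay above every library of the other types. All 8 astrocyte clusters held it at 118 to 205 CPM, and 53 cells of the cluster OPC_1 held it at 89.2 CPM (21 UMIs).

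Meis1 was found in the oligodendrocyte lineage and in astrocytes at low levels. Mature oligodendrocytes held 18.2 ± 4.08 CPM (n = 12, 13.1 to 27.1), with the highest cluster, Oligo_1, at 29.9 CPM (27 UMIs). Astrocytes held 8.06 ± 4.58 CPM. In excitatory neurons only 10 of 14452 cells had a UMI of it. The libraries of mature oligodendrocytes and astrocytes overlapped, while each mature oligodendrocyte library lay above every excitatory and endothelial library.

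Meis3 and Pbx2 were spread more evenly. Meis3 was at 21.3 ± 7.78 CPM in excitatory neurons, 23.6 ± 11.6 CPM in inhibitory neurons and 29.3 ± 18.1 CPM in OPC, and at 4.36 ± 3.70 CPM in mature oligodendrocytes. Pbx2 was at 16.7 ± 1.66 CPM in excitatory neurons and between 15.6 and 37.7 CPM in the libraries of endothelial cells. The neuronal, OPC and endothelial libraries of either gene overlapped. Over the 26 excitatory clusters Meis3 ranged only from 16.4 to 33.6 CPM and Pbx2 from 12.6 to 22.2 CPM.

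Pbx3 had its highest means in inhibitory neurons, at 22.6 ± 15.2 CPM (n = 12, 3.44 to 52.8), and endothelial cells, at 12.5 ± 3.86 CPM (7.13 to 21.7). OPC held 8.12 ± 6.36 CPM (0 to 22.8), microglia 7.49 ± 8.64 CPM (0 to 30.8) and mature oligodendrocytes 4.71 ± 3.94 CPM (0 to 13.6), all overlapping both. Excitatory neurons held 1.21 ± 0.321 CPM. Among inhibitory clusters it was highest in Inhib_3, Inhib_4 (89.2 CPM, 36 UMIs in 74 cells), Inhib_11 (40.7 CPM, 20 UMIs in 47 cells) and Inhib_12 (20.4 CPM, 8 UMIs in 30 cells), while 3 of the 12 had none. At P21 the last 2 of these held 63.4 and 68.4 CPM. Excitatory clusters had a median of 0.92 CPM, and the highest, Exc_26, had 9.17 CPM.

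**Figure D2:**
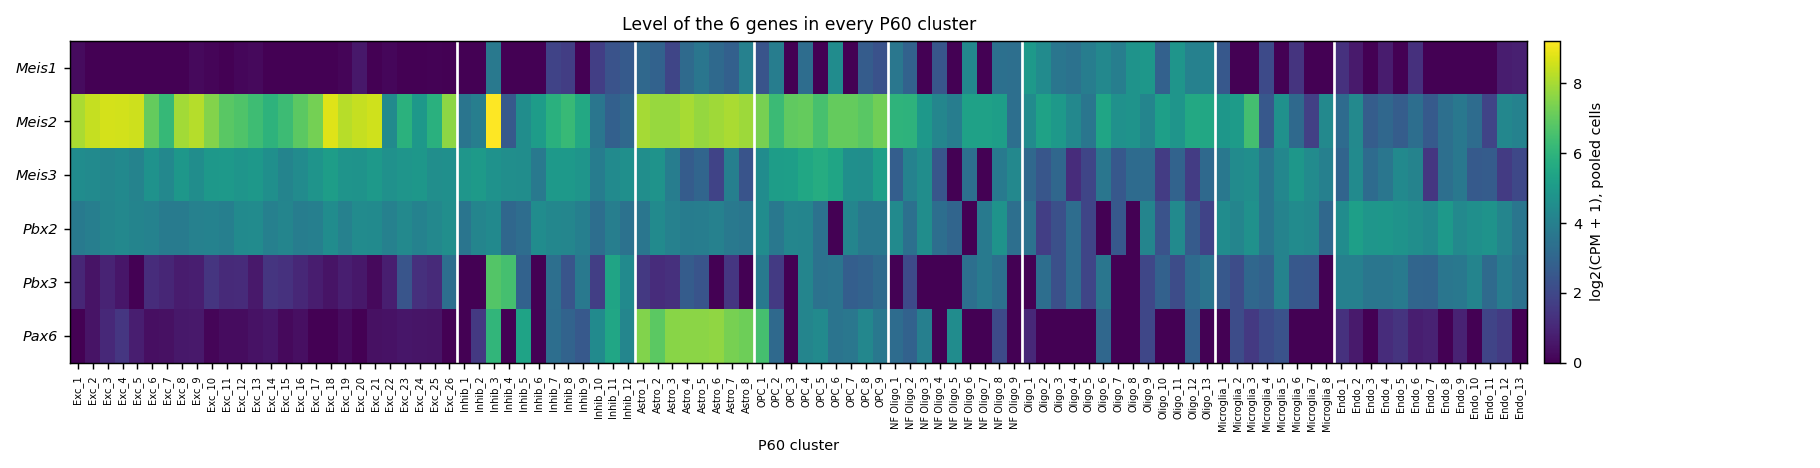
Level of the 6 genes (rows) in the 98 P60 clusters (columns, grouped by type), as log2(CPM + 1) of the pooled cells of a cluster, coloured from dark (0) to yellow (highest). Meis2 varies widely among excitatory clusters, Pax6 marks the 8 astrocyte clusters, and Inhib_3 stands out in the Meis2 row of the inhibitory clusters.

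The 6 genes therefore did not follow each other. Over the 82 P60 clusters of at least 50 cells, Pearson's r of log2(CPM + 1) between pairs lay between -0.55 (Meis1 and Pbx2) and 0.41 (Meis1 and Pax6). These are descriptions, and the clusters share libraries. Among 13917 genes, those most like Meis2 were Dok5 (r = 0.80), Gria2, Dclk1, Dab1 and Mt3, and those most like Pax6 were Fam69c (0.88), Hapln1, Gm16738, Entpd2 and Dio2. Those most like Meis1 were Cmtm5 (0.89), Hipk2, Megf10, Gm20515 and Psat1, and those most like Pbx3 were Mtss1 (0.74), Lima1, Svil, Gatad2a and Cp. Meis3 was most like Bscl2 (0.80), B4galt6, Basp1, Prdx5 and 2010204K13Rik, and Pbx2 most like Gtpbp1 (0.72), Htatip2, Wdr26, Mef2d and Cramp1l.

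Meis2 varied widely among the 26 excitatory clusters. The mean over P60 libraries was 434 ± 67.3 CPM in Exc_18 (n = 7), 395 ± 24.6 CPM in Exc_3, 386 ± 33.1 CPM in Exc_4, 377 ± 65.7 CPM in Exc_21 and 367 ± 32.8 CPM in Exc_5 (n = 12 each). It fell through the order to 56.9 CPM in Exc_23, 32.1 CPM in Exc_24 and 17.6 CPM in Exc_22. Neighbours in the order mostly differed by less than the spread between libraries: Exc_18 lay above Exc_3 in 4 of 7 shared libraries. The widest step separated Exc_1 (250 CPM) from Exc_10 (180 CPM), which it exceeded in 10 of 11 libraries by 73.7 ± 60.1 CPM.

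The layers to which these clusters belong can be read from layer genes, with Cux2 and Calb1 summed and Foxp2 and Syt6 summed, and Rorb, Etv1 and Tshz2 each taken alone. A cluster was said to be led by the highest of these 5 values in its pooled cells, which favours the summed pairs. The 3 clusters led by Foxp2 and Syt6, genes of deep corticothalamic neurons (Exc_18, Exc_19 and Exc_20), held 297 to 430 CPM of Meis2 in pooled cells. The 11 led by Cux2 and Calb1, genes of upper layers, held 80.6 to 394 CPM with a median of 263. The 5 led by Rorb held 28.9 to 181 CPM, and the 6 led by Etv1, a gene of deep pyramidal neurons, held 20.2 to 199 CPM with a median of 65.9. Exc_21, led by Tshz2, held 373 CPM. It also held more Etv1 (696 CPM) than any cluster led by Etv1, of which the highest had 272 CPM. The rule was close in Exc_16, where 79.9 CPM of Rorb stood against 78.1 CPM of Cux2 and Calb1 together, and in Exc_17, where Cux2 (109 CPM) and Calb1 (21.6 CPM) together stood against 119 CPM of Rorb. Exc_12 and Exc_13, the latter at the low end of its group, held 46.5 and 27.4 CPM of Calb1 but only 0.94 and 3.25 CPM of Cux2. Fezf2, another gene of deep layers, was not used, and in Exc_26 it was at 244 CPM against 188 CPM of Etv1. High Meis2 was thus found in deep and in upper layer clusters, and the ranges of the groups overlapped except that no cluster led by Etv1 or Rorb reached Exc_21 or the clusters led by Foxp2 and Syt6.

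Inhib_3 comprised 135 P60 cells, of which 58 came from library 8, 33 from library 12, 11 each from libraries 9 and 10 and 9 from library 11. Library 1 gave none and the others 1 to 4 each. Meis2 was at 1953 CPM in the cells of library 8 (447 UMIs, exact Poisson 95% interval 1776 to 2142), which covers counting error only, as do all intervals here. It was at 48.1 CPM in library 9, 111 CPM in library 10, 79.2 CPM in library 11 and 68.8 CPM in library 12. Over all 135 cells the level was 594 CPM, and without library 8 it was 60.1 CPM (41.9 to 83.6), against 20.8 CPM in the other inhibitory clusters of the same libraries (17.7 to 24.2). Library 8 lay apart from all others, and without it the interval of Inhib_3 lay above that of the other inhibitory clusters pooled. Taken singly, Inhib_8 was as high, at 72.4 CPM over the P60 libraries (33 UMIs, 49.8 to 102).

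**Figure D3:**
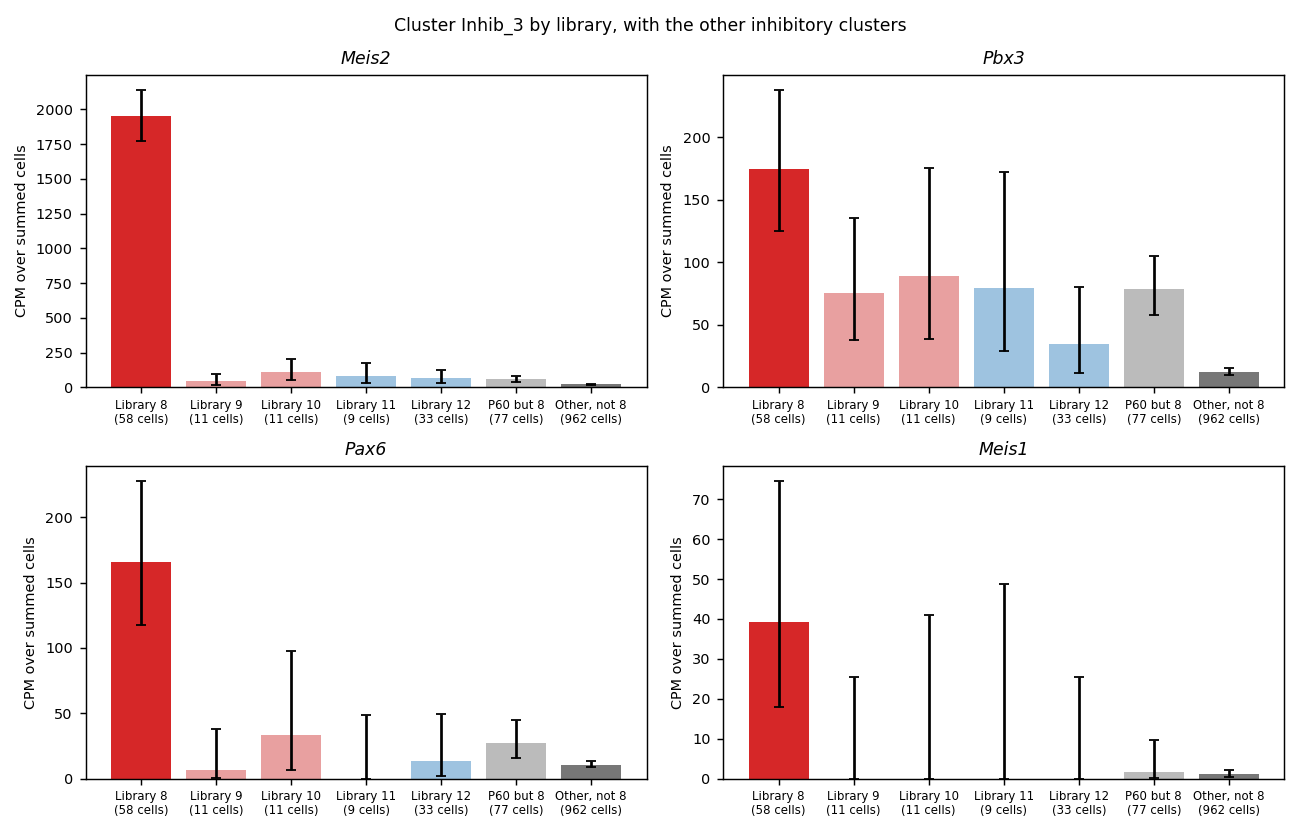
Level of Meis2, Pbx3, Pax6 and Meis1 in Inhib_3 cells (vertical axis, CPM over summed cells, from 0) for library 8 (red), the other cocaine (pink) and saline (blue) libraries with at least 9 cells, all P60 libraries but 8 (light grey) and the other inhibitory clusters of those libraries (dark grey). Bars are values and whiskers exact Poisson 95% intervals. Meis2 is at 1953 CPM in library 8 and at no more than 111 CPM in the other libraries drawn.

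In pooled cells, the other genes moved with library 8 to different extents. Pax6 was at 166 CPM in library 8 (117 to 228) and 27.5 CPM without it (15.7 to 44.6), against 10.6 CPM in the other inhibitory clusters of the libraries without 8, pooled. Among these, Inhib_11 (42.7 CPM, 26.5 to 65.3) and Inhib_5 (39.3 CPM, 23.3 to 62.0) had higher Pax6 than Inhib_3 without library 8. Their values are over all P60 libraries, and their intervals overlapped that of Inhib_3. The 4 Inhib_3 cells of library 4 held 230 CPM of Pax6 (105 to 436), from 9 of the 16 UMIs outside library 8. Library 8 thus did not lie apart for Pax6. Meis1 was at 39.3 CPM in library 8 (9 UMIs, 17.98 to 74.6) and 1.72 CPM without it (1 UMI). Pbx3 was at 175 CPM (125 to 238) against 79.0 CPM without the library (57.8 to 105). The latter was above the 12.6 CPM of those other clusters pooled but below the 89.2 CPM of Inhib_4 (62.5 to 124), with overlapping intervals. By library, Pbx3 was at 281 CPM in library 2 (2 cells, 5 UMIs) and 153 CPM in library 4 (4 cells, 6 UMIs). Library 8 thus did not lie apart for Pbx3 either. Meis3 (13.1 and 29.2 CPM) and Pbx2 (26.2 and 17.2 CPM) had overlapping intervals with and without library 8.

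Cell by cell, 56 of the 58 Inhib_3 cells of library 8 held a Meis2 UMI and 48 held at least 5, at a median of 3948 UMIs per cell. In the other P60 libraries 16 of 77 cells held one and 2 held at least 5, at a median of 6582 UMIs, so the cells of library 8 were the shallower. In library 8 Pbx3 was found in 24 cells and Pax6 in 18. Both were found in 4 cells, Pbx3 alone in 20 and Pax6 alone in 14. Of these, 23 of the 24 and 16 of the 18 also held Meis2. As 56 of all 58 cells held Meis2, such an overlap follows from that share and says nothing of a link between the genes.

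Meis2 was not confined to Inhib_3 in library 8. Of its 152 inhibitory cells, 61 held at least 5 Meis2 UMIs, 48 of them in Inhib_3 and 13 in Inhib_7, while no other library had more than 6 such cells. In Inhib_7 Meis2 was at 468 CPM in library 8 and at 0 to 27.8 CPM in the other P60 libraries with at least 10 of its cells. The other inhibitory clusters of library 8 together held 193 CPM (164 to 226). At P21 the 12 cells of Inhib_3 held 237 CPM of Meis2 from 13 UMIs (126 to 406) and 146 CPM of Pbx3 from 8 UMIs, while Pax6 and Meis1 were at 0 UMIs, which allows up to 3 UMIs by the floor used here.

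The Inhib_3 cells of library 8 differed from the others in many genes beside these. By the ratio of CPM (with 5 CPM added) the highest 10 of 4428 genes were Trh, Gpsm1, Th, Gal, Meis2, Sall3, Lgr5, Syt10, Chrm2 and Penk. Trh, thyrotropin-releasing hormone, was at 1398 CPM against 0 in the other libraries, Th, tyrosine hydroxylase, at 437 against 3.43 CPM, and Sall3, a zinc finger factor, at 140 against 0 CPM. The lowest 10 were Sst, Sln, Yjefn3, Cck, Nov, Caln1, Hapln1, Enpp2, Cntn4 and Cplx3, with Sst at 0 against 795 CPM and Cck at 109 against 3425 CPM.

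GABAergic markers (Gad1, Gad2 and Slc32a1) summed to 3372 CPM in the Inhib_3 cells of library 8, 2404 CPM in those of the other libraries and 3495 CPM in the other inhibitory clusters of those libraries. The summed markers of the cortical interneuron lineages varied between libraries. Those of the medial ganglionic eminence (Lhx6, Sox6, Satb1, Sst and Pvalb) summed to 157, 836 and 4665 CPM in that order, and those of the caudal ganglionic eminence to 170, 618 and 3615 CPM. By library, the former were at 61.8, 11.1 and 971 CPM and the latter at 749, 1772 and 186 CPM in libraries 9, 10 and 12, so that library 8 lay within these libraries for the former and near library 12 for the latter. In library 8 Lhx6, Sox6 and Sst were at 0, while Pvalb was at 131 CPM against 6.87 CPM in the Inhib_3 cells of the other libraries. Markers of migrating neuroblasts summed to 1817, 1185 and 1070 CPM, of which Tubb3 alone gave 944, 695 and 682 CPM. The other genes of this list went both ways. Dcx, Dlx1 and Dlx5 were higher in the Inhib_3 cells of library 8 than in those of the other libraries, and Cd24a and Sp8 were lower. The 3 endothelial and 6 mural markers were all at 0 in the Inhib_3 cells of library 8. They summed to 160 and 110 CPM in the Inhib_3 cells of the other libraries. In the other inhibitory clusters of those libraries they summed to 30.9 and 27.4 CPM. The genes of striatal projection neurons went both ways. Drd1a, Drd2 and Adora2a were at 0 in library 8 and at 8.58, 6.87 and 1.72 CPM in the others, and Foxp1 (56.8 against 117 CPM), Tac1 (48.1 against 94.4), Rgs9 (8.74 against 10.3) and Ppp1r1b (4.37 against 6.87) were lower there. Penk was at 310 CPM in library 8 against 17.2 CPM and Pde10a at 118 against 96.1 CPM. A list of 10 genes of olfactory bulb interneurons (Th, Trh, Sall3, Scgn, Synpr, Calb2, Tshz1, Etv1, Sp8 and Pcp4), chosen after the values of library 8 had been seen, summed to 12341, 1701 and 1627 CPM with none at 0 in library 8. Pcp4 alone gave 7544, 927 and 485 CPM of these sums. Sp8 of this list was lower in library 8 than in the other Inhib_3 cells (83.0 against 120 CPM). Trh, Th and Sall3 were among the 10 highest ratios above, so a high sum was fixed by the choice and tells no cell type. Whether library 8 holds cells of another region was not tested.

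From P21 to P60, 3 of 20 tests of a gene in a cell type passed edgeR's quasi-likelihood test at 0.05 after Benjamini-Hochberg adjustment with at least a 1.5-fold difference. Meis3 fell in excitatory and inhibitory neurons and Pax6 was called higher in inhibitory neurons. Pax6 passed the low-count filter there only through P60 libraries where it was high, so its call is limited to that extent. The other 28 of 48 combinations were too low to be tested, Meis1 in every type. In excitatory neurons 1 of 4 was called against 18.1% of all genes tested, and in inhibitory neurons 2 of 5 against 14.1%. None was called in the other types: 0 of 2 in astrocytes (all genes 7.63%), 0 of 2 in OPC (20.4%), 0 of 1 in newly formed (5.98%) and 0 of 1 in mature oligodendrocytes (16.5%), 0 of 1 in microglia (42.4%) and 0 of 4 in endothelial cells (13.4%). In those types 2 of these tests, Pax6 in astrocytes and Meis2 in mature oligodendrocytes, had an unadjusted p below 0.05. DESeq2 called 3 of all the age tests as well.

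The classes were not made of the same clusters at both ages. Inhib_1, Inhib_2 and Inhib_6, which held 0 to 1.92 CPM of Pax6 at either age, made up 61.3% of the inhibitory neurons at P21 (53.6 to 68.9% over 3 libraries) and 15.0% in P60 saline (0 to 25.9% over 6). Inhib_7 made up 7.95% (4.41 to 13.7%) and 36.3% (15.8 to 40.7%). Of the excitatory neurons, Exc_18, Exc_19 and Exc_20 made up 22.01% at P21 (21.7 to 22.3%) and 9.88% in P60 saline (5.72 to 12.7%). The part of these shares in the changes of a whole class was not tested.

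Meis3 was at 48.8, 46.1 and 27.5 CPM in the inhibitory neurons of the 3 P21 libraries and at 29.7, 20.6, 15.1, 13.8, 18.4 and 22.7 CPM in saline libraries 2, 3, 5, 7, 11 and 12. The groups overlapped by 1 library. The log2 change was -1.14 ± 0.23 (SE), with an adjusted p of 0.0022 by edgeR's quasi-likelihood test, a call lost with all 12 P60 libraries (-0.69). In excitatory neurons Meis3 was at 36.1, 26.8 and 20.4 CPM at P21 and 19.5, 15.6, 14.5, 14.3, 15.98 and 27.2 CPM at P60, and the groups overlapped. The log2 change there was -0.60 ± 0.22 (edgeR adjusted p = 0.0461), a call lost in 9 alternatives, among them without library P21 1 (-0.35) and with all 12 P60 libraries (-0.33).

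Pax6 was at 1.95, 3.25 and 2.50 CPM in P21 inhibitory neurons and at 7.42, 30.9, 2.16, 2.12, 16.5 and 11.3 CPM in the P60 saline libraries. Libraries 5 and 7, both of 48 h withdrawal, lay within the P21 range and the other 4 above it. The log2 change was 2.11 ± 0.59 (edgeR adjusted p = 0.0186), a call lost without the third P21 library at the same size of change. Without saline library 3, 11 or 12, or with at least 30 cells, Pax6 was too low to be tested. It thus entered the test only through P60 libraries where it was high, and the p-value does not allow for this. Pax6 could be tested in no inhibitory cluster. In Inhib_7 it was at 6.21 CPM at P21 (3 UMIs, 1.28 to 18.2). Over the P60 cells of saline and cocaine libraries together, library 8 included, Inhib_7 held 9.03 CPM (31 UMIs, 6.14 to 12.8). These intervals overlapped. The summed astrocyte markers in inhibitory neurons were at 112, 105 and 71.9 CPM in the P21 libraries and at 297, 109.9, 242, 141, 429 and 452 CPM in saline libraries 2, 3, 5, 7, 11 and 12. Library 3, with the most Pax6 of these, had the fewest astrocyte markers of the saline libraries. The part of astrocyte RNA in the change was not tested. In astrocytes Pax6 was at 94.6, 87.1 and 97.4 CPM at P21 and at 98.9 to 228 CPM at P60, with a median of 156, in 5 libraries. These groups did not overlap, but the change of 0.95 ± 0.32 did not pass the test (adjusted p = 0.0859, edgeR), and it was 0.29 with cells left out whose class and cluster differ.

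Meis2 was not called in any type. In excitatory neurons it was at 156 to 175 CPM at P21 and 156 to 218 CPM at P60 (0.17 ± 0.11, adjusted p = 0.239, edgeR). In inhibitory neurons the change was 0.81 ± 0.31 (adjusted p = 0.0744) and in mature oligodendrocytes 0.83 ± 0.38 (adjusted p = 0.148, edgeR). With cells left out whose class and cluster differ, an alternative added after the data were seen, both were called in the edgeR test, at 1.36 ± 0.32 and 1.90 ± 0.40. The summed astrocyte markers in mature oligodendrocytes, over all cells of the class, were at 88.5 to 135 CPM at P21 and 218 to 456 CPM in P60 saline, and their part in the Meis2 of these cells was not tested. In microglia, where Meis2 was at 90.6 to 140 CPM at P21, Slc17a7 was at 97.3 to 316 CPM at P21 and at 7.51 to 157 CPM in the P60 saline libraries. The part of neuronal RNA in these values was not tested.

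Within excitatory clusters Meis2 moved both ways. Of 156 combinations of gene and cluster 56 could be tested and 11 were called, 5 higher and 6 lower at P60, against 11.3% of all tests in these clusters. Meis2 rose in the 3 clusters led by Foxp2 and Syt6, Exc_18 (0.85 ± 0.16), Exc_19 (1.12 ± 0.16) and Exc_20 (0.98 ± 0.17), and in 2 led by the sum of Cux2 and Calb1, Exc_17 (1.15 ± 0.22) and Exc_6 (0.60 ± 0.18). It fell in Exc_22, led by Etv1 (-1.19 ± 0.34), and Exc_24, led by Rorb (-1.20 ± 0.30). With DESeq2 the calls in Exc_6 and Exc_22 were lost and the other 5 were kept. Its change was positive in 19 of the 26 clusters and negative in 7, with a median of 0.27. P21 cells had been given cluster names by the authors from their likeness to P60 cells. The summed astrocyte markers in excitatory neurons as a class were at 31.7 to 52.6 CPM at P21 and 62.6 to 143 CPM in P60 saline. In P60 saline astrocytes themselves they were at 13976 to 23620 CPM. The part of astrocyte RNA in the changes by cluster was not tested.

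In Exc_19 Meis2 was at 110, 125 and 147 CPM at P21 and at 207 to 349 CPM, with a median of 246, in the 6 saline libraries (adjusted p = 3.6e-05, edgeR). In Exc_18 it was at 219 to 245 CPM at P21 and 331 to 479 CPM in 3 P60 libraries, and in Exc_20 at 136 to 203 CPM and 295 to 362 CPM. In Exc_17 it was at 52.9 to 95.1 CPM and 105 to 169 CPM, and in Exc_6 at 82.1 to 94.4 CPM and 119 to 155 CPM. The groups did not overlap in any of these 5 clusters. In Exc_22 it was at 22.9 to 47.1 CPM at P21 and 4.61 to 23.8 CPM at P60, and in Exc_24 at 53.2 to 89.96 and 17.0 to 55.3 CPM, where the groups overlapped.

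Meis2 in the clusters led by Foxp2 and Syt6 was set beside that in Exc_22 and Exc_24, library by library. Over Exc_18, Exc_19 and Exc_20 together, Meis2 was at 161 to 188 CPM in the P21 libraries, 231 to 365 CPM in P60 saline and 249.2 to 353 CPM in P60 cocaine libraries. Over Exc_22 and Exc_24 it was at 38.9 to 72.9, 13.6 to 37.4 and 11.3 to 40.2 CPM. Per library, the log2 ratio of the former to the latter was 1.13 to 2.24 at P21, 2.59 to 4.22 in saline and 2.60 to 4.84 in cocaine libraries, with every P60 library above every P21 library. These clusters were picked for their change, and the ratio was not tested.

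**Figure D4:**
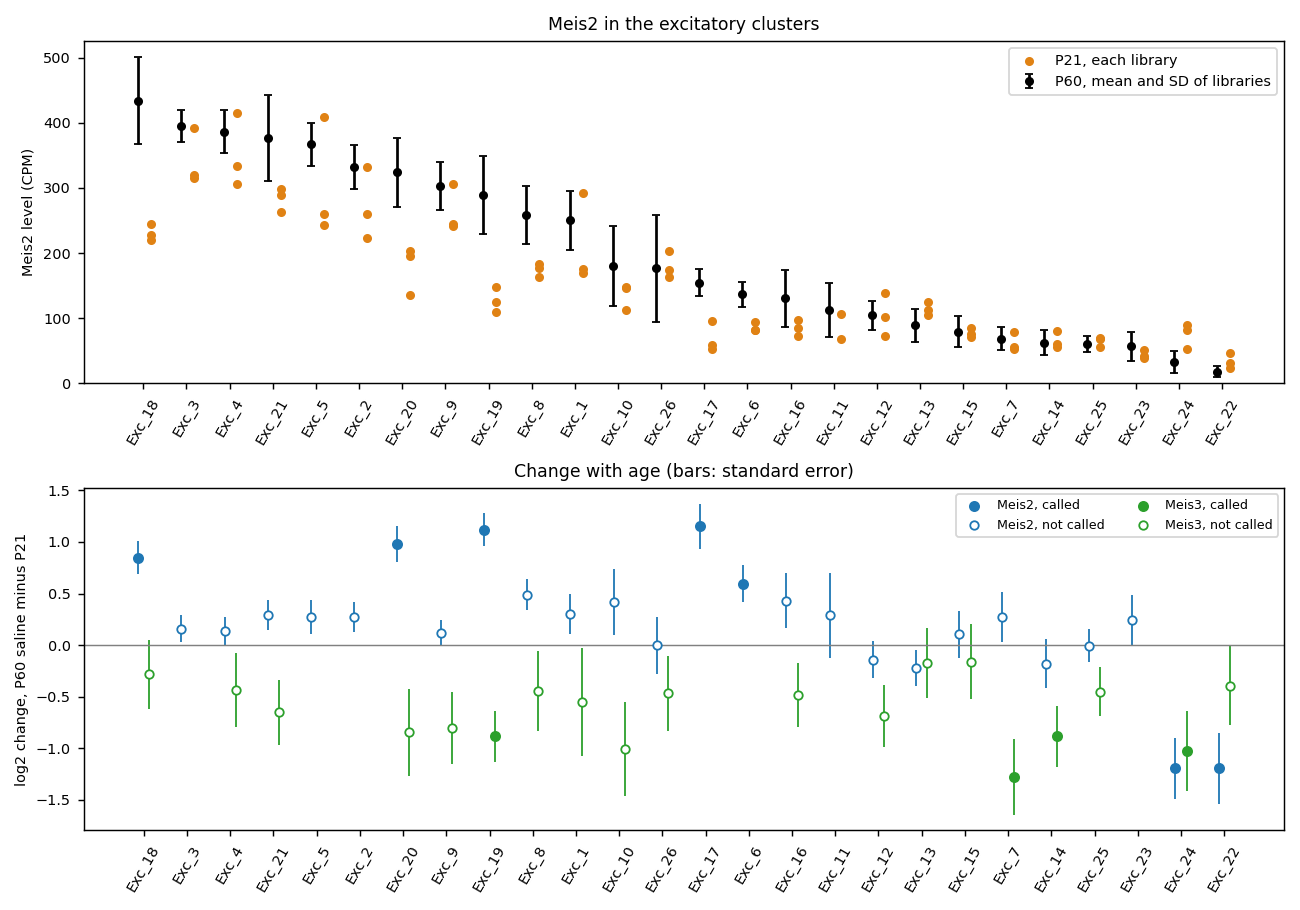
Upper panel, Meis2 level in CPM in the 26 excitatory clusters (horizontal axis, ordered by level), as mean and SD over P60 libraries (black) and each P21 library (orange). Lower panel, log2 change from P21 to P60 saline with its standard error for Meis2 (blue) and Meis3 (green), filled where called and open where not. Meis2 lies above 0 in 19 clusters and below in 7, and Meis3 lies below 0 in all 19 clusters in which it was tested.

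Meis3 had a negative change in each of the 19 excitatory clusters in which it could be tested, with log2 values from -1.28 to -0.16 and a median of -0.55. It was called in 4, Exc_7 (-1.28 ± 0.37), Exc_24 (-1.03 ± 0.39), Exc_19 (-0.88 ± 0.24) and Exc_14 (-0.88 ± 0.29), and the groups did not overlap in Exc_7 alone, where P21 was at 24.2 to 42.0 CPM and P60 at 4.90 to 14.4 CPM. Clusters share their libraries and are not replicates. The 4 cluster calls of Meis3 were lost with DESeq2 and with all 12 P60 libraries. Pbx2 was called in 0 of 11 clusters by edgeR, with 0 at an unadjusted p below 0.05. In inhibitory clusters 2 of 18 combinations in 3 clusters could be tested, both of Meis3 (-1.21 and -1.13), and 0 were called by edgeR, with 1 at an unadjusted p below 0.05, against 1.65% of all tests there.

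Of 31 other TALE genes, partners and regional transcription factors, 64 of 248 combinations of gene and type were tested for age and 15 were called, 7 higher and 8 lower at P60, against 16.4% of all tests in the 8 types. Of these calls 5 were in microglia, where 42.4% of all genes were called. Pbx4, another Pbx factor, fell in excitatory (-0.997 ± 0.117) and inhibitory neurons (-1.25 ± 0.20), and Mkx, a TALE factor known from tendon, fell in inhibitory neurons (-1.38 ± 0.27). The cortical layer factors Foxp2 (-1.58 ± 0.19) and Tbr1 (-0.89 ± 0.09) fell in excitatory neurons, where Tshz1 rose (0.92 ± 0.14). These changes stood beside the fall in the share of Exc_18, Exc_19 and Exc_20 given above. Sox2 rose (2.13 ± 0.40) and Foxp1 fell (-1.73 ± 0.51) in OPC, Etv1 rose in mature oligodendrocytes (1.48 ± 0.21), beside the astrocyte markers given above, and Tbr1 fell in endothelial cells (-2.01 ± 0.53).

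Markers of other cells moved with the calls in OPC, while in endothelial cells the ranges of the marker given here overlapped. The 31 and 12 P21 OPC of 2 libraries held Snap25, a synaptic gene of neurons, at 2076 and 2165 CPM against 159 to 1255 CPM in P60 saline OPC, and Slc17a7 at 387 and 345 against 6.97 to 179.9 CPM. Their summed astrocyte markers were at 248 and 345 CPM against 1005 to 1352 CPM. In endothelial cells Slc17a7 was at 121, 36.5 and 31.1 CPM at P21 and at 4.57 to 57.7 CPM in P60 saline. The part of these RNAs in the changes was not tested.

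In microglia Tgif1 (2.101 ± 0.347), Pbxip1 (1.38 ± 0.32), Zfhx3 (1.26 ± 0.22) and Sall3 (1.18 ± 0.42) rose and Foxp1 fell (-0.95 ± 0.29). None of these 5 was called with cells left out whose class and cluster differ (Tgif1 0.26 ± 0.36, adjusted p = 0.906, edgeR), and the Slc17a7 of microglia given above differed between the ages. Its part in them was not tested.

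Cocaine and saline were compared within each time point in a fit of the 6 groups. At maintenance edgeR called 0 of 17 tests of these genes (1 at an unadjusted p below 0.05; all genes 0.00459%) and at 48 h 0 of 17 without inhibitory neurons (0 at an unadjusted p below 0.05; all genes in those types 0.00771%). At 15 d it called 1 of 22 (4 at an unadjusted p below 0.05; all genes 0.327%), and over all time points, again without inhibitory neurons, 0 of 12 (3 at an unadjusted p below 0.05; all genes in those types 0.00859%). DESeq2 called 1 over the 3 time points, Meis3 in excitatory neurons at 15 d (0.79), and 0 over all of them together. Of 41 differences between time points in these contrasts edgeR called 0, with 2 at an unadjusted p below 0.05 and a lowest adjusted p of 0.715.

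The gene called at 15 d was Meis3 in inhibitory neurons, at 52.8 and 34.2 CPM in cocaine libraries 9 and 10 and at 18.4 and 22.7 CPM in saline libraries 11 and 12. The groups did not overlap, and the log2 change was 1.14 ± 0.28 (edgeR adjusted p = 0.0391). The call was lost without any 1 of the 4 libraries (0.77, 1.38, 0.97 and 1.29 without libraries 9, 10, 11 and 12), where 1 library stood for its group and was assumed to vary like the other groups of the fit, and with DESeq2 (1.12). In excitatory neurons of the same libraries Meis3 was at 36.8 and 34.9 CPM against 15.98 and 27.2 CPM (0.79 ± 0.20, adjusted p = 0.116, edgeR), which was called with DESeq2, without library 12 (1.22) and without the filter on low counts (0.80). In endothelial cells Meis3 was at 15.6 and 18.005 CPM against 8.17 and 10.1 CPM (0.88 ± 0.35, adjusted p = 0.774, edgeR). These values come from the same 4 libraries and are not independent.

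Meis2 in OPC at 15 d was at 195 and 263 CPM in the cocaine libraries and 96.9 and 122 CPM in the saline libraries, groups that did not overlap, with a change of 0.99 ± 0.32 that did not pass (adjusted p = 0.596, edgeR). The OPC of library 10 numbered 20. Slc17a7 in these OPC was at 159 and 206 CPM in cocaine libraries 9 and 10 and at 180 and 70.7 CPM in saline libraries 11 and 12. The part of neuronal RNA in their Meis2 was not tested. Pbx2 in endothelial cells at maintenance was at 15.95 and 16.6 CPM with cocaine and 37.7 and 28.0 CPM with saline, again without overlap and without passing (-0.99 ± 0.32, adjusted p = 1, edgeR). Excitatory Meis2 at 15 d was at 144 and 165 CPM with cocaine and 170 and 160 CPM with saline, and these overlapped.

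In inhibitory neurons at 48 h, where library 8 had chosen the genes, the log2 differences of cocaine from saline were 4.73 for Meis2, 1.63 for Pbx3 and 4.03 for Pax6, as a description. Cocaine libraries 6 and 8 held 10.3 and 567.8 CPM of Meis2, 23.99 and 52.8 CPM of Pbx3 and 10.3 and 47.9 CPM of Pax6. Saline libraries 5 and 7 held 6.49 and 15.9, 19.5 and 11.7, and 2.16 and 2.12 CPM. Meis2 of library 6 lay between both saline libraries. Without library 8, Meis2 in inhibitory neurons was at 17.6 ± 11.6 CPM over the other 11 P60 libraries, against 63.4 ± 159 CPM with it.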

How the data were processed

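Raw UMI counts per gene and cell were deposited by the authors without normalization, with a table of retained cells that gives each cell's class and cluster. Per the labels and the study's methods, reads were aligned to mm9 and counted with Cell Ranger, and cells were filtered and clustered with Seurat 2.1.0. Counts were joined to the table by barcode, and 13 mitochondrial genes and 143 genes of ribosomal proteins were dropped, so that 25989 genes entered CPM and tests. UMIs were summed per library and type or cluster. For tests and for means over libraries, those with fewer than 10 cells of it were left out. Pooled values of clusters, and the values of Inhib_3 by library, use all cells.

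Tests were made in R 4.3.3 with edgeR 4.0.16 (low-count filter, TMM scaling, robust quasi-likelihood fit). Calls needed a change above 1.5-fold and p below 0.05 after Benjamini-Hochberg adjustment over all genes of the fit. P21 was set against the 6 saline P60 libraries, and cocaine against saline in 1 fit of 6 groups of 2 libraries. The separate libraries are taken as replicates, and p-values measure the spread between them. DESeq2 1.42.0 was an alternative, and scripts were tested on simulated data.

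The 6 genes, the list of 31 and the markers were chosen with earlier results of these data known. Genes most alike are the 5 with the highest r per gene, and those of library 8 the 10 highest and 10 lowest ratios among genes with at least 30 UMIs. Some genes of these lists, and sums that need them, are not reported here. Doublets were not searched for beyond the authors' own filter. Positions come from the NCBIM37 annotation, promoters from RefSeq, and near-identical ends were found with minimap2 2.31-r1302. A count of 0 is read as up to 3 UMIs.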

Additional observations from a re-analysis of the deposited data

Results flagged for a closer look

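The level of each gene in each type was examined for a library far from the others of its treatment, in 62 groups of 5 or 6 P60 libraries, and 6 stood apart. Chance alone gives about 1 such group in 20. The cocaine libraries of inhibitory neurons were not examined, because library 8 had chosen the genes. Saline library 2 held 52.0 CPM of Pbx3 in inhibitory neurons against 3.44 to 19.5 CPM in the other saline libraries. It had 19 inhibitory cells by cluster, of which 2 were in Inhib_3 and held 5 UMIs of Pbx3. In microglia, Meis2 was at 175 CPM in saline library 11 against 0 to 46.5 CPM, and at 123 CPM in cocaine library 10 against 0 to 43.9 CPM. Library 10 also held the highest cocaine values of Meis3 in astrocytes, 41.1 CPM against 0 to 13.5 CPM, and of Pbx3 in OPC, 22.8 CPM against 4.61 to 10.3 CPM. It gave only 55 astrocytes and 20 OPC. In mature oligodendrocytes, Pbx3 was at 0 CPM in saline library 3 against 4.92 to 7.53 CPM in the others. Library 3 gave only 41 of these cells, and its 0 is read as up to 3 UMIs.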

How the results depend on the processing

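No called change with age or cocaine turned its direction under the alternatives run, but thinning turned the order of excitatory neurons and astrocytes in the share of cells with a Meis2 UMI. Calls of the 6 genes by age and type numbered 3, 5 with only cells whose class and cluster agree, and 1 to 4 when a library was left out, with 1 without saline library 3. By age and cluster they numbered 11, but 5 with DESeq2 (Meis2 in Exc_17, Exc_18, Exc_19, Exc_20 and Exc_24), 3 with at least 30 cells, 7 with all 12 P60 libraries and 6 to 11 when a library was left out, with 7 without library 7 and 6 without library 11. The calls of Meis2 in those 5 clusters were kept in every alternative in which they could be fitted. Cocaine calls by time point numbered 1 (Meis3 in inhibitory neurons at 15 d), 2 without the filter on low counts and 0 to 1 when a library was left out, with 0 without library 9, 10 or 11. The 1 call without library 12 and the 1 with DESeq2 were another, Meis3 in excitatory neurons at 15 d. Of the levels in Inhib_3, those without library 8 were 1.72 CPM for Meis1, 60.1 for Meis2, 79.0 for Pbx3 and 27.5 for Pax6, and those of Meis3 and Pbx2 moved within their intervals. The 14 called age changes of single genes were fitted 197 times over the alternatives, and the call was kept in 156 of these fits and lost in 41. Calls gained, as of Meis2 in inhibitory neurons and mature oligodendrocytes, enter the counts above only. The causes were not tested. Alternatives by cluster, the class and cluster agreement and the fit without Inhib_3 were added after the data were seen. Of the mean levels by type, all but 1 moved by less than 1 SD, the exception being Meis2 in excitatory neurons at 156 CPM with mitochondrial and ribosomal protein genes kept. The cell shares fell with thinning to 2000 UMIs in all 48 combinations. Thinning draws from the UMIs of the same cells and cannot raise a share, so this fall says nothing of the genes. No paired analysis was possible because replicate numbers follow the order of the samples and pair nothing. At these UMI counts 28 of the 48 combinations of gene and type could not be tested for age, Meis1 in every type. In excitatory neurons, at a median of 13616 UMIs per cell, this went with levels of 0.07 CPM of Meis1 and 0.38 CPM of Pax6.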
